A study of Homo sapiens with 4 samples.

Results

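The TNF superfamily genes were followed in H1792 cells kept with ACBI1 or with its solvent. The family was taken from the gene symbols of the count files: every symbol beginning TNFSF (ligands) or TNFRSF (receptors) followed by a number and at most 1 letter, with TNF, LTA, LTB, CD40, CD40LG, CD70, CD27, FAS, FASLG, NGFR, EDAR and LTBR added. This gave 44 genes of 61228 listed, of which 32 had 10 or more counts in at least 2 of the 4 libraries and all 32 could be tested. H1792 is an established human lung cancer line, and its genotype is given as WT in the labels for both groups. The control group (2 libraries) received DMSO and the other group (2 libraries) received ACBI1, each for 96 h. ACBI1 is a degrader that couples the VHL ubiquitin ligase to SMARCA2, SMARCA4 and PBRM1, which are proteins of the SWI/SNF chromatin remodelling complexes. The labels write its dose as 1 mM, which the counts cannot check and which is unusually high for such a compound. Nothing in the labels says whether libraries of a group came from separate cultures, so the p-values measure the spread between these libraries, which may be technical.

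Ligands of the TNF superfamily are mostly trimers anchored in the cell membrane, from which some are cut free. Their receptors carry cysteine-rich outer domains and fall into death-domain receptors, which can assemble caspase-activating complexes, receptors that bind TRAF adaptor proteins directly and feed NF-kB and JNK signalling, and decoys that bind ligand without passing on a full signal. In epithelial tumours the family is best known for TNF and lymphotoxin signalling to NF-kB, for cell death through the TRAIL and FAS receptors, and for ligands that costimulate T cells.

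Gene counts per library ran from 64281850 to 86010100. Levels are given as CPM, which are counts divided by the library size after TMM scaling. SMARCA4, a target of the degrader, was at 283 and 216 CPM with DMSO and at 414 and 398 CPM with ACBI1, and neither it nor SMARCA2 or PBRM1 was called. ACBI1 acts on the proteins, so these values check no label. Of markers for lung epithelium and carcinoma, KRT7, KRT8 and KRT18 were abundant, CDH1 had 4 to 16 counts per library and NKX2-1 had none. EPCAM was at 5.38 and 2.78 CPM with DMSO and at 15.6 and 4.83 CPM with ACBI1 and was not called. The 8 markers summed to 984 and 1044 CPM with DMSO and 325 and 205 CPM with ACBI1. Of 6 tested, 4 were called lower, against 10.6% of all genes tested. KRT7 alone made up 677 and 680 CPM with DMSO and 179 and 60.3 CPM with ACBI1. Since the RNA was bulk, fewer cells of a type and less RNA per cell cannot be told apart.

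The family moved in 1 direction among its called members. With edgeR's quasi-likelihood test, 16 of the 32 tested members were called lower with ACBI1 at a Benjamini-Hochberg adjusted p under 0.05 over all genes, and 0 were called higher. Over all 19159 genes tested, 17.4% were called, 10.6% lower and 6.76% higher (1295 higher and 2037 lower, or 1755 and 1866 under scaling by library size only). At an unadjusted p under 0.05, 19 members were lower and 1 was higher, and 33.9% of all genes were under it in either direction. The median log2 change was -1.16 over the members and 0.01 over all genes. Both ACBI1 libraries lay below both DMSO libraries in 22 members, which is 68.8%, against 32.2% of all genes. Both lay above in 2 members, against 31.1% of all genes, and 63.2% of all genes lay apart in either direction. DESeq2 called 17 members lower and 1 higher, where 12.1% of all genes were called lower. Of the 32 members, 4 (LTA, NGFR, TNFSF10 and TNFSF13) reached 10 counts in DMSO libraries alone, and so were bound to lean lower. The counts above therefore describe the list and lend it no support.

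**Figure D1:**
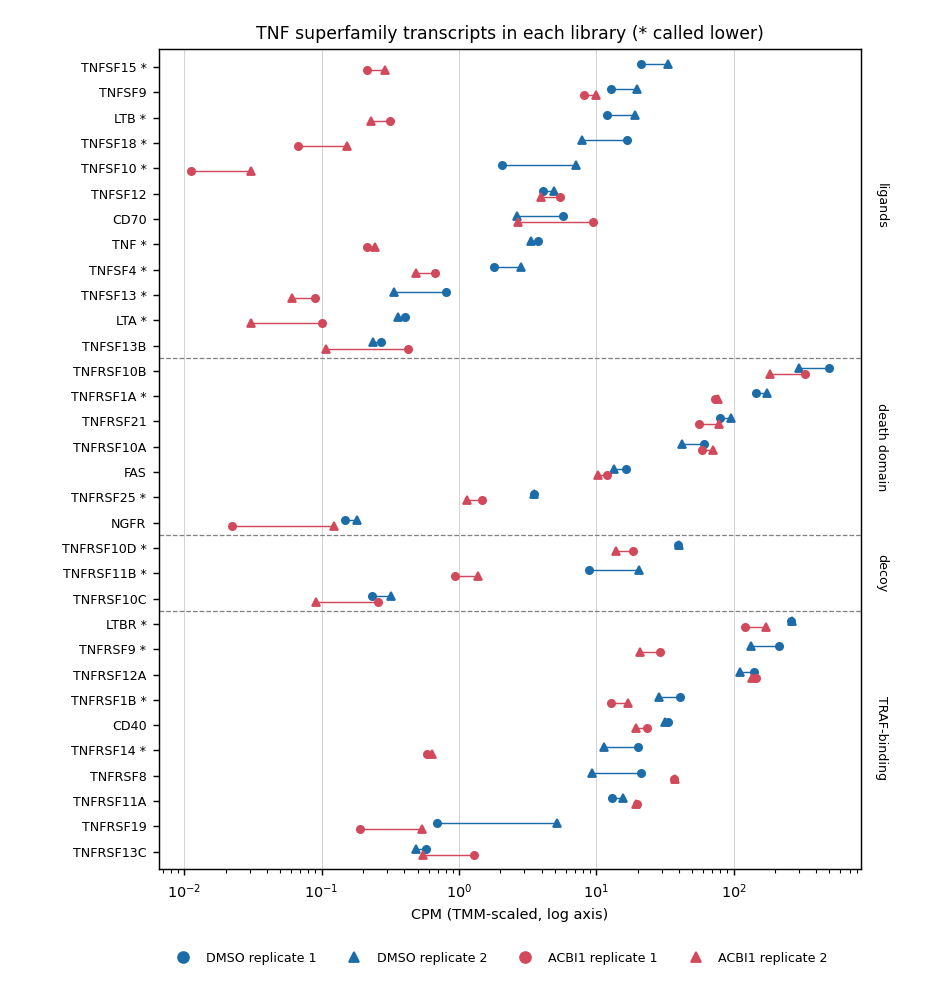
Level of each of the 32 transcripts in each library, in TMM-scaled CPM on a log axis, by role; blue is DMSO, red is ACBI1, circles are replicate 1, triangles replicate 2, and a star marks a transcript called lower. The red points of TNFSF15, LTB, TNFSF18 and TNFSF10 lie at or under 0.313 CPM, while their blue points start at 2.07 CPM or more.

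Ligand transcripts showed the deepest falls. Of 17 ligand genes, 12 passed the count minimum. Of these, 8 (66.7%) were called lower, against 10.6% of all genes, and 4 were not called, with a median log2 change of -2.66. Among those called, LTA, TNFSF10 and TNFSF13 reached 10 counts in DMSO libraries alone, and so were bound to lean lower. The 4 that fell furthest, TNFSF10, TNFSF18, TNFSF15 and LTB, were left with 3 to 43 counts in the ACBI1 libraries together. Of the other 4 called, TNF fell 15.5-fold, TNFSF13 7.30-fold, LTA 5.48-fold and TNFSF4 3.95-fold.

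TNFSF15 encodes TL1A, a ligand best known from endothelium and inflamed gut, which binds the death-domain receptor of TNFRSF25. The gene lies at chr9:114784635-114806126 on the minus strand (GENCODE 29, hg38). Its transcript was at 21.2 and 33.3 CPM in DMSO replicates 1 and 2, and at 0.212 and 0.290 CPM in ACBI1 replicates 1 and 2. Every ACBI1 value was far under every DMSO value, and replicate 2 was the higher in each group. The log2 change was -6.77 (SE 0.38, edgeR adjusted p 0.00141), which is 109.3-fold lower and rests on 4124 counts against 38. TNFSF18 encodes the ligand of the GITR receptor, which costimulates T cells. It was at 16.6 and 7.89 CPM with DMSO and at 0.0670 and 0.152 CPM with ACBI1. The groups lay far apart although the replicates differed in each. The log2 change of TNFSF18 was -6.84 (SE 0.61, edgeR adjusted p 0.00305). Leaving out ACBI1 replicate 2 gave -7.49 and leaving out DMSO replicate 1 gave -6.19. Its neighbour TNFSF4, 133 kb away on chromosome 1, encodes the ligand of OX40, another T-cell costimulator. TNFSF4 was at 1.79 and 2.81 CPM with DMSO and at 0.670 and 0.488 CPM with ACBI1. Its groups did not overlap, and the log2 change was -1.98 (SE 0.41, edgeR adjusted p 0.0266). This call was lost without DMSO replicate 2 (edgeR adjusted p 0.0601), without ACBI1 replicate 1 (0.0643) and without ACBI1 replicate 2 (0.0920), while the change stayed between -2.26 and -1.63 with any 1 library left out.

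TNFSF10 encodes TRAIL, which triggers death through the receptors of TNFRSF10A and TNFRSF10B. Its level was 2.07 and 7.11 CPM with DMSO, and with ACBI1 it came to 1 and 2 counts, or 0.0112 and 0.0305 CPM. The DMSO replicates differed by more than those of most members, but the lower of them was still far above ACBI1. Scaled to library size, the DMSO counts were 230 times the ACBI1 counts (95% exact interval 78.2 to 1116, for counting error only). The fitted log2 change, which depends on the prior count, was -7.76 (SE 0.94, edgeR adjusted p 0.00652). It was -8.51 when ACBI1 replicate 2 was left out and -6.62 when DMSO replicate 2 was.

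The lymphotoxin and TNF genes stand side by side on chromosome 6, with gaps of 1.24 kb between LTA and TNF and 2.19 kb between TNF and LTB, and all 3 were called lower. TNF, the founding cytokine of the family, was at 3.77 and 3.32 CPM with DMSO and at 0.212 and 0.244 CPM with ACBI1. Replicates of each group were nearly equal and the groups were well apart. Its log2 change was -3.95 (SE 0.37, edgeR adjusted p 0.00361), and -4.06 to -3.84 with any 1 library left out. LTB encodes lymphotoxin beta, the membrane anchor of the lymphotoxin trimer that binds LTBR. Its level was 11.9 and 19.3 CPM with DMSO and 0.313 and 0.229 CPM with ACBI1, again with no overlap. The log2 change of LTB was -5.83 (SE 0.41, edgeR adjusted p 0.00193). LTA, the other lymphotoxin chain, had 33 and 26 counts with DMSO and 9 and 2 counts with ACBI1. At this depth the fall was less secure: the log2 change was -2.45 (SE 0.63, edgeR adjusted p 0.0457). LTA was not called by DESeq2 (adjusted p 0.0548) or with any library left out (edgeR adjusted p 0.0828 and 0.0737 without DMSO replicates 1 and 2, and 0.0835 and 0.179 without ACBI1 replicates 1 and 2). Its change then lay between -3.57 and -1.92.

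Sequence before the RefSeq start sites was read for these genes because they moved together. Of the 44 members, 28 had a promoter window in the RefSeq table (GRCh38.p14; 250 bases before to 50 after the start), among them 21 of the 32 that passed. Windows were searched on both strands for the NF-kB consensus, for AP-1 sites (TGANTCA) and for the core of the interferon-stimulated response element, and no match to one motif overlapped a match to another. Starts that RefSeq lists need not be those used in H1792 cells, which were not analysed. The stretches below are shown for 3 ligands with a match. The TNFSF15 stretch lies inside the GENCODE span of its gene, whose outer start is at 114806126, so the RefSeq start used is an internal 1. That of LTB lies partly inside the span of its gene. Capitals mark the match: an AP-1 site in TNFSF15 (chr9:114792531-114792670, minus strand), an interferon-response core on the opposite strand in TNFSF10 (chr3:172523508-172523630, minus strand) and an NF-kB match on the opposite strand in LTB (chr6:31582428-31582545, minus strand).
TNFSF15: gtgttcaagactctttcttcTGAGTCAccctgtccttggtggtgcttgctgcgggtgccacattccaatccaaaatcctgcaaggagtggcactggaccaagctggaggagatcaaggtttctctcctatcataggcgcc
TNFSF10: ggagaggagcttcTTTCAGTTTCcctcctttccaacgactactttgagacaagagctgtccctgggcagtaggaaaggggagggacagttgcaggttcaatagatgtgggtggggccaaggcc
LTB: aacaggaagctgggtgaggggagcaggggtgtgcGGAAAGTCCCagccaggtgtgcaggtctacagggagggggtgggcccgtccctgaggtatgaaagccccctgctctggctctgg

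Over the tested members with a window, the NF-kB consensus was found in 4 of the 14 called lower (LTB, TNFRSF9, TNFRSF14 and TNFRSF25) and in 0 of the 7 not called. It was present in 5.91% of all 35116 windows. AP-1 sites were found in TNFSF15 and TNFRSF9 among those called lower and in FAS and TNFRSF8 among those not called, against 7.71% of all windows. The interferon-response core was found in TNFSF10 and TNFRSF1B, and in TNFSF9 and TNFSF13B, against 3.57%. The matches named in TNFRSF25, TNFRSF8 and TNFSF13B do not lie before the start, while the others do. The window read for TNF held none of the 3 motifs. A match is a run of letters and does not show binding, and these counts were not tested.

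The remaining ligands were at lower levels or did not pass the test. TNFSF13 encodes APRIL, a survival factor for B-lineage cells. It was at 0.798 and 0.333 CPM with DMSO and at 0.0893 and 0.0610 CPM with ACBI1, a log2 change of -2.87 (SE 0.64, edgeR adjusted p 0.0323). The fall of TNFSF13 was not called without DMSO replicate 1 (-2.10, edgeR adjusted p 0.107), ACBI1 replicate 1 (-3.17, 0.103) or ACBI1 replicate 2 (-2.66, 0.11). A readthrough gene with TNFSF12 shares 55.5% of the exonic length of TNFSF13 and had 0 counts in all 4 libraries. How reads of the shared length were assigned is not given in the sources used here, so the level of TNFSF13 is uncertain. TNFSF12 itself encodes TWEAK, the ligand of TNFRSF12A, and 33.2% of its exonic length is shared. It was at 4.08 and 4.89 CPM with DMSO and at 5.48 and 3.95 CPM with ACBI1, so that the groups overlapped. For TNFSF12 the log2 change was 0.07 with a 95% interval from -0.67 to 0.81 (edgeR adjusted p 0.891).

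TNFSF9 encodes the ligand of 4-1BB, the receptor of TNFRSF9. It was at 12.7 and 19.7 CPM with DMSO and at 8.16 and 9.91 CPM with ACBI1. Its groups did not overlap, but the log2 change of -0.84 (SE 0.28, 95% interval -1.52 to -0.16) was not called (edgeR adjusted p 0.0901). DESeq2 called TNFSF9 lower (adjusted p 0.0376), as did edgeR without DMSO replicate 1 (adjusted p 0.0163). CD70, the ligand of CD27, was at 5.73 and 2.63 CPM with DMSO and at 9.42 and 2.68 CPM with ACBI1. In each group replicate 1 was the higher, and the groups overlapped. CD70 had a log2 change of 0.54 (95% interval -1.03 to 2.11, edgeR adjusted p 0.609), or -0.63 without ACBI1 replicate 1. TNFSF13B, which encodes the B-cell factor BAFF, had 7 to 38 counts per library and a log2 change of 0.10 (95% interval -1.55 to 1.76). The change was -1.23 without ACBI1 replicate 1, so at this depth no direction was detectable.

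**Figure D2:**
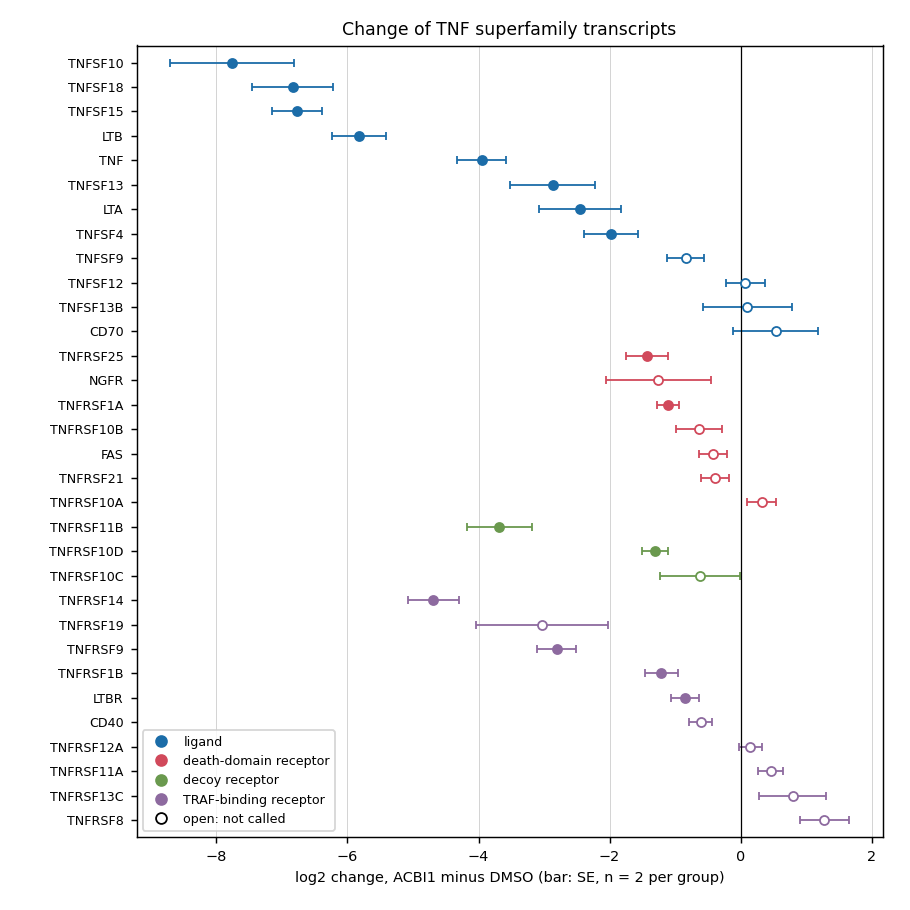
log2 change (ACBI1 minus DMSO) of the 32 transcripts by role, with bars of 1 SE from edgeR; filled points were called at an adjusted p under 0.05, open points were not. Ligands reach -7.76, whereas the filled death-domain receptors lie at -1.43 and -1.11 and no filled point lies to the right of 0.

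Of 27 receptor genes, 20 passed the minimum. Of these, 8 (40%) were called lower, against 10.6% of all genes, and 12 were not called, with a median log2 change of -0.74. Among death-domain receptors 2 of 7 were called, among decoys 2 of 3, and among receptors that recruit TRAF adaptors 4 of 10. The called receptors fell 1.80-fold to 25.8-fold, and whether ligands and receptors as classes differed was not tested.

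TNFRSF1A encodes the main TNF receptor of epithelial cells, with a death domain that recruits TRADD. It was at 147 and 177 CPM with DMSO and at 73.3 and 76.5 CPM with ACBI1. The ACBI1 replicates were nearly equal and lay under both DMSO replicates. Its log2 change was -1.11 (SE 0.17, edgeR adjusted p 0.0114), and without ACBI1 replicate 1 the change was -1.07 and not called (edgeR adjusted p 0.0639). TNFRSF1B encodes the second TNF receptor, which lacks a death domain and binds TRAF2. It was at 40.7 and 28.6 CPM with DMSO and at 12.9 and 17.2 CPM with ACBI1, without overlap. The log2 change of TNFRSF1B was -1.21 (SE 0.25, edgeR adjusted p 0.0259), or -1.01 and not called without ACBI1 replicate 1 (edgeR adjusted p 0.107). LTBR, the lymphotoxin beta receptor, lies 32.9 kb from TNFRSF1A on chromosome 12. It was at 264 and 266 CPM with DMSO and at 121 and 173 CPM with ACBI1. The DMSO replicates were alike and the ACBI1 replicates were lower but further apart. The log2 change of LTBR was -0.85 (SE 0.21, edgeR adjusted p 0.0448), which was -0.60 and not called without ACBI1 replicate 1 (edgeR adjusted p 0.226). TNFRSF25, the receptor of TL1A, was at 3.55 and 3.54 CPM with DMSO and at 1.47 and 1.14 CPM with ACBI1. It was lower in both ACBI1 libraries, with a log2 change of -1.43 (SE 0.32, edgeR adjusted p 0.0323). The fall of TNFRSF25 was not called without DMSO replicate 2, ACBI1 replicate 1 or ACBI1 replicate 2 (edgeR adjusted p 0.0598, 0.0835 and 0.128), at changes from -1.62 to -1.27. Other genes share 11.4% of its exonic length, ESPN the most.

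The deepest receptor fall was that of TNFRSF14, which encodes HVEM, a receptor for LIGHT and for the lymphocyte inhibitor BTLA. It was at 20.0 and 11.5 CPM with DMSO and at 0.581 and 0.640 CPM with ACBI1. The ACBI1 replicates were close and far under DMSO. The log2 change was -4.69 (SE 0.38, edgeR adjusted p 0.00252), which is 25.8-fold lower, and -5.04 to -4.23 with any 1 library left out. Its antisense gene TNFRSF14-AS1 overlaps 13.4% of the exonic length of TNFRSF14 and had 14 counts in each DMSO library and 0 in each ACBI1 library. This makes the antisense transcript at least 9.44-fold lower, taking a floor of 3 counts over the group. Without a stated strand setting, reads of this antisense gene and of TNFRSF14 cannot be told apart where they overlap. TNFRSF9 encodes 4-1BB, best known as an activation marker and costimulator of T cells. In these carcinoma cells it was at 213 and 135 CPM with DMSO, and at 28.95 and 20.7 CPM with ACBI1. The groups did not overlap, and the log2 change was -2.81 (SE 0.29, edgeR adjusted p 0.00453), which is 7.0-fold lower. TNFRSF9 rested on 27043 counts against 3949, the most counts of any member that fell by over 4-fold.

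The NF-kB matches before the RefSeq starts of these receptor genes are shown because both genes fell and LTB has such a match too. Both stretches lie inside the GENCODE spans of their genes, whose outer starts are at 2555639 (TNFRSF14) and 7943165 (TNFRSF9), so the RefSeq starts used are internal. In TNFRSF14 the match is on the gene's own strand (chr1:2556262-2556365, plus strand), and the antisense gene covers this stretch. In TNFRSF9 (chr1:7940890-7940919, minus strand) matches on both strands overlap with an offset of 1 base, and an AP-1 site, TGAGTCA, begins 44 bases before the start. Capitals mark the NF-kB matches.
TNFRSF14: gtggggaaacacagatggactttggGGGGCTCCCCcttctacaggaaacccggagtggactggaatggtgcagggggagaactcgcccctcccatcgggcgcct
TNFRSF9: tgtggtGGGAATTTCCCatgagaccccgcc

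Of the receptors that bind TRAIL, the decoys of TNFRSF10D and TNFRSF11B were called lower and the death receptors were not called. TNFRSF10B, which encodes the death receptor of highest level here, was at 498 and 301 CPM with DMSO and at 332 and 183 CPM with ACBI1. Replicate 1 was the higher in each group and the groups overlapped. A log2 change of -0.63 (SE 0.36, 95% interval -1.50 to 0.23) left TNFRSF10B without a call (edgeR adjusted p 0.265), and it became called with no filter on low counts (edgeR adjusted p 0.0156). TNFRSF10A, the other TRAIL death receptor, was at 61.3 and 42.2 CPM with DMSO and at 58.7 and 70.6 CPM with ACBI1. The groups overlapped, and the log2 change of 0.32 (95% interval -0.22 to 0.86) was not called (edgeR adjusted p 0.363). Other genes share 16.6% of the exonic length of TNFRSF10A. TNFRSF10D, a decoy with a truncated death domain, was at 39.3 and 40.2 CPM with DMSO and at 18.4 and 13.8 CPM with ACBI1. It did not overlap between groups, with a log2 change of -1.30 (SE 0.20, edgeR adjusted p 0.0111) that was called with each library left out. TNFRSF10C, the decoy without a cytoplasmic domain, had 6 to 23 counts per library, similar sequence to its neighbours and 39.3% of its exonic length shared, and was not called (edgeR adjusted p 0.523).

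TNFRSF11B encodes osteoprotegerin, a secreted decoy for RANKL that also binds TRAIL. It was at 8.92 and 20.6 CPM with DMSO and at 0.938 and 1.37 CPM with ACBI1. Replicate 2 was higher in each group, and the groups were well apart. The log2 change was -3.68 (SE 0.49, edgeR adjusted p 0.00803), with -4.16 when DMSO replicate 1 was left out and -2.96 when DMSO replicate 2 was. TNFRSF11A, which encodes the signalling receptor RANK, was at 13.0 and 15.6 CPM with DMSO and at 19.8 and 19.5 CPM with ACBI1. Both ACBI1 libraries were above both DMSO libraries, but the log2 change of 0.46 (SE 0.19, 95% interval -0.01 to 0.93) was not called (edgeR adjusted p 0.154). TNFSF11, the gene of RANKL, had at most 2 counts in a library.

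FAS, CD40 and TNFRSF21 leaned lower without a call. FAS, the death receptor for FAS ligand, was at 16.4 and 13.4 CPM with DMSO and at 12.0 and 10.2 CPM with ACBI1. Its groups did not overlap, and its log2 change was -0.42 (95% interval -0.96 to 0.11, edgeR adjusted p 0.234). CD40, which on epithelial cells feeds NF-kB through TRAF adaptors, was at 33.6 and 31.8 CPM with DMSO and at 23.3 and 19.5 CPM with ACBI1. The replicates were close in each group, and the log2 change of -0.61 (SE 0.17, 95% interval -1.03 to -0.19) missed the threshold (edgeR adjusted p 0.0611). Over 7 alternatives on all 4 libraries without a block, CD40 was called by 1, at adjusted p from 0.038 to 0.09. TNFRSF21, a death-domain receptor best known from neurons and lymphocytes, was at 79.7 and 95.8 CPM with DMSO and at 55.6 and 77.8 CPM with ACBI1. Its log2 change was -0.40 (95% interval -0.92 to 0.13, edgeR adjusted p 0.248), although the groups did not overlap.

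TNFRSF8 leaned the other way and had the highest log2 change of the family. It encodes CD30, best known from activated lymphocytes and Hodgkin lymphoma. The level was 21.2 and 9.27 CPM with DMSO and 36.6 and 37.2 CPM with ACBI1. The ACBI1 replicates were alike and above both DMSO replicates, which differed widely. The log2 change of 1.28 (SE 0.37, 95% interval 0.37 to 2.19) was not called by edgeR (adjusted p 0.0656). It was called higher by 4 of 7 alternatives on all 4 libraries without a block, with adjusted p from 9.10e-07 to 0.0632. The lowest came from edgeR with no filter on low counts, and the next was 0.00586 from DESeq2. That unfiltered fit stands apart, as it also gave TNFRSF19 an adjusted p of 9.02e-10, against 0.0919 in the main edgeR fit. Without DMSO replicate 1 the log2 change of TNFRSF8 was 2.0. Without DMSO replicate 2 the change of TNFRSF8 was 0.80 (edgeR adjusted p 0.0513), and without ACBI1 replicate 1 or 2 it was not called either (edgeR adjusted p 0.134 and 0.122). TNFRSF8 lies 22.8 kb from TNFRSF1B, which was called lower.

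TNFRSF12A, the receptor of TWEAK and a wound- and growth-factor-induced gene, was among the most even members. It was at 141 and 112 CPM with DMSO and at 145 and 135 CPM with ACBI1, with overlap between groups. TNFRSF12A had a log2 change of 0.15 (95% interval -0.28 to 0.58, edgeR adjusted p 0.608). TNFRSF19, a receptor of epithelial and hair-follicle progenitors, was uneven in the controls. It was at 0.687 and 5.16 CPM with DMSO and at 0.190 and 0.534 CPM with ACBI1, so that 1 DMSO library set most of the difference. The change of TNFRSF19, -3.03 on the log2 scale (SE 1.01), was not called (edgeR adjusted p 0.0919), and it was -0.95 without DMSO replicate 2 and -3.85 without DMSO replicate 1, where it was called (edgeR adjusted p 0.000280). DESeq2 also called TNFRSF19 lower (adjusted p 0.00205). TNFRSF13C, the BAFF receptor gene, and NGFR, the neurotrophin receptor gene, were at most 1.28 CPM in any library and were not called (edgeR adjusted p 0.323 for each).

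The other 12 members were under the count minimum. CD40LG, FASLG, TNFRSF13B, TNFRSF17 and TNFRSF6B had 0 counts in all 4 libraries, which allows up to 0.0335 to 0.0457 CPM per library (3 counts, counting error only). For TNFRSF6B this is no measure, because 100% of its exonic length is shared with other genes, and how reads there were assigned is not given in the sources used here. CD27, EDAR, TNFRSF4, TNFRSF18, TNFSF8, TNFSF11 and TNFSF14 had counts, at most 15 in a library. TNFRSF18, the receptor of the TNFSF18 ligand, had 8 and 15 counts with DMSO and 1 and 3 with ACBI1. TNFSF14, the gene of LIGHT, had 3 and 7 counts with DMSO and 1 in each ACBI1 library. No fold is given for genes at this level.

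Levels of different genes were set side by side as CPM per kilobase of exonic length, averaged over a group. With DMSO the highest were TNFRSF10B at 77.5 and TNFRSF12A at 68.4 CPM per kb, whose replicates overlapped, followed by LTBR at 42.2 and TNFRSF1A at 40.4, which overlapped as well. The first 9 places were all receptors. LTB, in place 10, was the highest ligand at 10.2 CPM per kb and overlapped TNFSF9 at 9.72. With ACBI1, TNFRSF12A stood first at 75.8 CPM per kb, above TNFRSF10B at 49.9 without overlap. TNFRSF8 had moved from place 15 to 7 and TNFRSF9 from 5 to 13. TNFSF9 then had the highest mean of the ligands, 5.43 CPM per kb (4.90 to 5.95), and overlapped CD70 (1.75 to 6.15), while LTB was in place 20 at 0.176 and TNFSF10 in place 32, the last, at 0.00600.

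Ligand and receptor transcripts were also read as pairs known to bind, 28 in all, of which 14 had both partners over the count minimum. Both partners were called lower in 8 pairs: TNF and LTA each with TNFRSF1A and TNFRSF1B, LTB with LTBR, TNFSF15 with TNFRSF25, and TNFSF10 with TNFRSF10D and TNFRSF11B. Only the ligand was called lower in 3 pairs, which are TNFSF10 with TNFRSF10A, TNFRSF10B and TNFRSF10C. Only the receptor was called in the pair TNFSF9 and TNFRSF9, and neither in 2 pairs, TNFSF12 with TNFRSF12A and TNFSF13B with TNFRSF13C. The pairs share members, so they are not independent of each other. Of their ligands, LTA and TNFSF10 reached 10 counts in DMSO libraries alone, and so were bound to lean lower. The counts of pairs were not tested and only describe the list. For CD40 and FAS no ligand transcript was detected, and TNFSF18 and TNFSF4 had receptors under the count minimum.

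**Figure D3:**
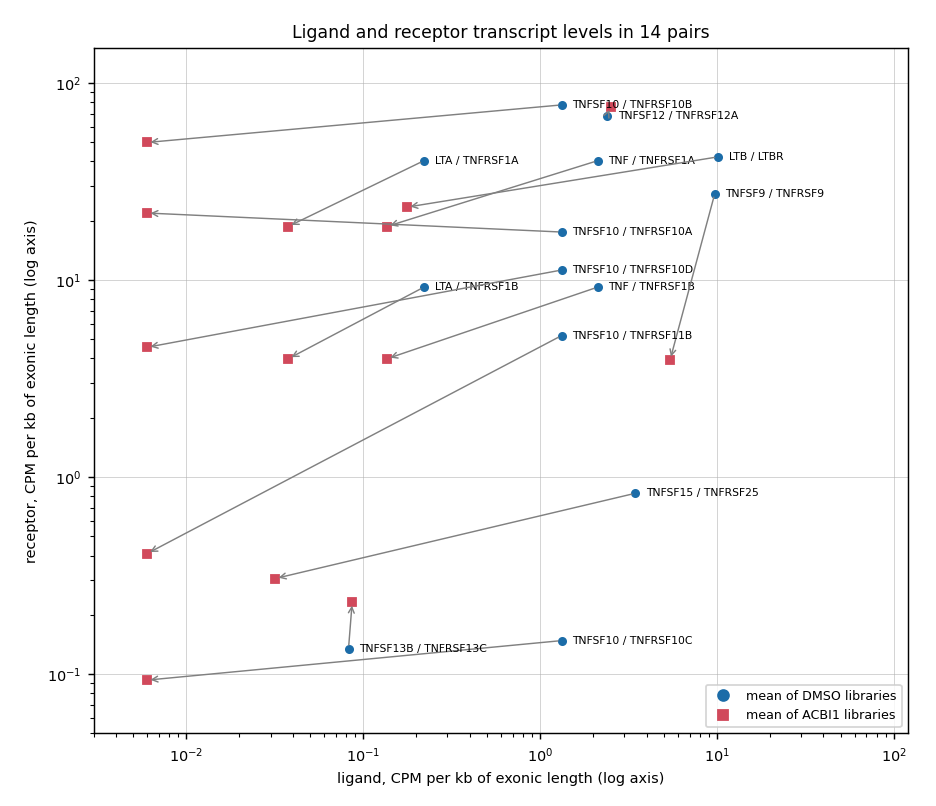
Mean level of the ligand (x) and of its receptor (y) in 14 pairs, both in CPM per kb of exonic length on log axes; an arrow leads from the DMSO mean (circle) to the ACBI1 mean (square), each over 2 libraries. Long arrows to the left are the TNFSF10, TNFSF15 and LTB pairs, and the TNFSF12 and TNFRSF12A pair hardly moves.

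Calls were also read for members that lie close together in the genome. Of 14 neighbouring member pairs under 250 kb apart, 10 had both genes over the minimum, and both were called lower in 4 of these: LTA and TNF, TNF and LTB, TNFSF18 and TNFSF4, and TNFRSF1A and LTBR. Of the 4 TRAIL receptor genes that lie side by side on chromosome 8, TNFRSF10D alone was called. TNFSF9 and CD70, 47.3 kb apart on chromosome 19, were both not called. This is a description of positions, with no test, and LTA passed the minimum through DMSO libraries alone. The pairs share members, and 16 of the 32 members (50%) were called lower, against 10.6% of all genes. Pairs with both genes lower would therefore occur wherever the members lay.

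Genes that act next to the receptors moved both ways. Of 19 adaptor and ubiquitin genes 18 were tested, and 4 were called lower and 2 higher, with a median log2 change of -0.22, where 17.4% of all genes were called in either direction. TNFAIP3, which encodes the deubiquitinase A20 that restrains TNF signalling, fell from 150 and 209 CPM to 24.5 and 23.6 CPM, a log2 change of -2.90 (SE 0.22, edgeR adjusted p 0.00231). CYLD, another deubiquitinase acting on the receptor complex, had a log2 change of -1.31 (edgeR adjusted p 0.0103). The death-domain adaptor FADD, with 54.9% of its exonic length shared with another gene, had one of -1.06 (edgeR adjusted p 0.0467). The fall of TANK (-0.96, edgeR adjusted p 0.0186) and the rise of TRAF3 (0.78, edgeR adjusted p 0.0346) are named after their values were seen. BIRC3, which encodes the ubiquitin ligase cIAP2, rose from 136 and 109.4 CPM to 746 and 356 CPM, a log2 change of 2.16 (SE 0.37, edgeR adjusted p 0.0154).

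Among 13 kinases between the receptors and NF-kB or JNK, 1 was called, a share under the 17.4% of all genes. MAP3K14, which encodes NIK, the kinase of the non-canonical NF-kB pathway used by LTBR and CD40, rose from 29.5 and 28.7 CPM to 124 and 165 CPM. Its log2 change was 2.31 (SE 0.20, edgeR adjusted p 0.00265), the median of the 13 was -0.04, and its antisense gene covers 12.3% of its exonic length. In the death pathway downstream of the receptors, BID, which links death receptors to mitochondria, was called lower (-0.74, edgeR adjusted p 0.0407). CFLAR, whose product holds back caspase-8, was called lower too (-0.61, edgeR adjusted p 0.0407). Among 7 genes for shedding and processing 1 was called, where 17.4% of all genes were called in either direction. It was RHBDF1, which helps the TNF sheddase mature, and was lower (-0.83, edgeR adjusted p 0.0317). The median of the 7 was -0.67. At an unadjusted edgeR p under 0.05, 6 of the 7 were lower, as were 3549 of all 19159 genes tested. Of 3 family genes that the symbol rule does not take (EDA, EDA2R and RELT), 2 were tested and 0 called.

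A hand-picked list of 17 cytokine, adhesion and feedback genes known to be induced by TNF was read last. All 17 were tested, 15 were called lower, against 10.6% of all genes, and 0 higher, and the median log2 change was -3.37. VCAM1, an adhesion molecule for leukocytes, had 439 and 161 counts with DMSO and 0 in both ACBI1 libraries, at least 202-fold lower with a floor of 3 counts over the group. TNFAIP6, a hyaluronan-binding protein, had a log2 change of -8.10 (edgeR adjusted p 0.00141), IL6 one of -6.80 (edgeR adjusted p 0.00231) and CXCL8 one of -5.47 (edgeR adjusted p 0.00231). The 2 not called, CCL2 and NFKBIE, had log2 changes of -1.44 and -0.80 (edgeR adjusted p 0.115 and 0.112). Other genes that TNF is known to induce stand in the adaptor list, and they went different ways. TNFAIP3 fell (log2 change -2.90, above) and BIRC3 rose (above). TRAF1 had a log2 change of -0.22 and was not called (edgeR adjusted p 0.775). That inflammatory genes fell in these libraries was known when this list was written, so it is no independent evidence.

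**Figure D4:**
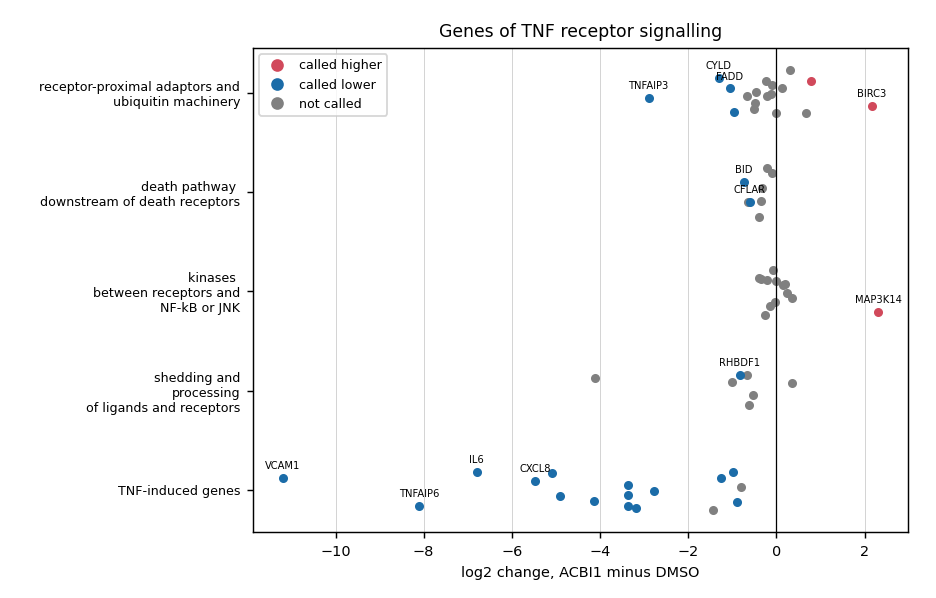
log2 change (ACBI1 minus DMSO) of the tested genes of 5 lists around TNF receptor signalling, leaving out a gene that is not reported here; red was called higher, blue lower and grey not called, and the vertical scatter within a list has no meaning. MAP3K14 at 2.31 and BIRC3 at 2.16 stand to the right, and the TNF-induced genes lie to the left of 0, where the place of VCAM1 depends on the prior count.

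Markers of other cell types were read beside these falls, since many members are best known from leukocytes. The 12 leukocyte markers summed to 0.540 and 1.22 CPM with DMSO and to 0.435 and 0.579 CPM with ACBI1, and CD3E, CD3D, CD2 and MS4A1 were at 0 in all libraries. The 5 endothelial markers summed to 12.8 and 49.0 CPM with DMSO and to 0.123 and 0.122 CPM with ACBI1. Of 3 tested, 2 were called lower, against 10.6% of all genes. PECAM1 made up most of that sum, and the endothelial cadherin CDH5 had 2 and 4 counts with DMSO and 0 with ACBI1. The 7 fibroblast markers summed to 1005 and 1988 CPM with DMSO and to 89.4 and 275 CPM with ACBI1. Of the 7, 4 were called lower, against 10.6% of all genes. The part of the epithelial, endothelial and fibroblast genes' falls in the changes of the family was not tested.

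Leaving out 1 library at a time showed which member calls hold with 3 libraries. Of the 16 called members, 9 were called in each of the 4 reduced fits: TNFSF15, TNFSF18, TNFSF10, LTB, TNF, TNFRSF14, TNFRSF11B, TNFRSF9 and TNFRSF10D. The number of members called lower was 16 and 13 without DMSO replicates 1 and 2, and 9 and 12 without ACBI1 replicates 1 and 2, where 13.1%, 8.57%, 4.82% and 6.28% of all genes were called lower. Without DMSO replicate 1 the 16 were not the same genes, since LTA and TNFSF13 were lost and TNFSF9 and TNFRSF19 were gained. With all 4 libraries, 16 members were called lower under upper-quartile scaling, library size only and limma-voom, where 10.4%, 9.74% and 10.5% of all genes were called lower. With no filter on low counts 20 were, against 10.1%. At an adjusted p under 0.01, 8 members were called lower, against 3.19% of all genes called lower. With the replicate number as a block 21 were, against 21.9% of all genes called lower. Each of the 16 members called with all libraries kept a negative log2 change in the 4 reduced fits. In a reduced fit the lone library of a group is assumed to vary like those of the other group.

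**Figure D5:**
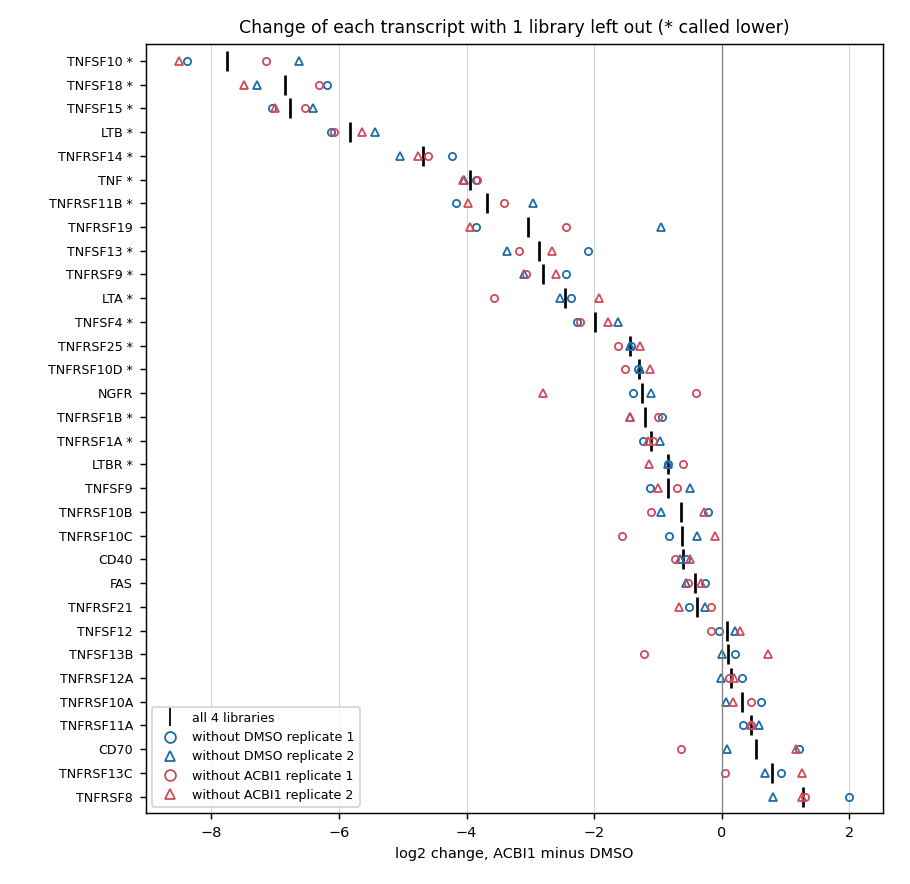
log2 change (ACBI1 minus DMSO) of each of the 32 transcripts from all 4 libraries (black bar) and with 1 library left out (open symbols, blue for a DMSO and red for an ACBI1 library, circle for replicate 1 and triangle for replicate 2); a star marks a transcript called lower. The symbols of every starred transcript stay left of 0, and those of TNFRSF19 spread from -3.94 to -0.95.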

How the data were processed

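RNA-seq libraries of H1792 cells (2 with DMSO, 2 with ACBI1) were used as the whole-number counts per gene symbol that the authors deposited, unnormalized. TopHat2 2.1.1, HTSeq 0.11.0 and hg38 are named in the submitters' processing notes; annotation and strand setting are not given in the sources used here. The 5 summary lines (13.9% to 15.4% of reads listed) were left out.

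edgeR 4.0.16 (filterByExpr, TMM, glmQLFit, glmQLFTest; R 4.3.3) tested 19159 genes on treatment, called at a Benjamini-Hochberg adjusted p under 0.05. SE is the log2 change divided by the square root of F, and intervals are 95%. Counts were simulated for the 19159 genes, all with the same spread (edgeR's common dispersion), and 18699 of them passed the filter again. Among these, 40, 77 and 79 genes had been changed by an absolute log2 of 1, 2 and 4. Of them, 27.5%, 93.5% and 100% were given back, with 4 false calls. The spread differs between real genes, so these figures do not measure the power or error of this comparison. Exonic lengths, overlaps and positions came from GENCODE 29, promoters from RefSeq. Alternatives were other scalings, filters and tools (DESeq2 1.42.0, limma 3.58.1), the replicate number, a stricter threshold and each library left out. Called members (at most 14 with the largest change) and the main receptors are named with values, as are at most 4 called genes per list; the other called members are given too. A gene of the lists is not reported here. Members and lists were chosen with earlier results of these data known.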

Additional observations from a re-analysis of the deposited data

How the results depend on the processing

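Other scalings and tools kept the 16 falls nearly whole: 16 members were called lower with DESeq2 size factors, upper-quartile scaling, library size only and limma-voom, and 15 of them with DESeq2. Among genes averaging 5 CPM or more, 20 members were tested, 10 were called lower and none of those tested lost its call, with 12.9% of all genes called lower. At an adjusted p under 0.01, 8 were called lower. With 1 library left out, 9 to 16 members were called lower and 0 to 1 higher. TNFRSF8 made the count called higher 1 under library size only, no filter, DESeq2 and limma-voom. TNFSF13B changed direction with limma-voom (-0.16) and, over libraries left out, ran from -1.23 to 0.73; CD70 ran from -0.63 to 1.21, TNFSF12 from -0.17 to 0.28 and TNFRSF12A from -0.0086 to 0.32; the cause was not tested. Over all genes, 2202 were higher and 3316 lower with no filter, 172 and 611 at an adjusted p under 0.01, and 415 to 1651 and 964 to 2641 with 1 library left out. With a minimum count of 5 or 50, 35 or 26 members passed.

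Same-numbered libraries deviated together (correlation over genes 0.52), but 2 pairs and the labels do not establish a pairing. With the replicate number as a block, 21 members were called lower and 2 higher (TNFRSF8 and TNFRSF11A), no call was lost, the falls of CD40, TNFRSF10B (-0.65, edgeR adjusted p 0.00313), TNFRSF19, TNFRSF21 and TNFSF9 were gained, TNFSF13B was at -0.047, and over all genes 3708 were higher and 4201 lower.

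Members under the count minimum were not tested.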
